A study of Mus musculus with 5 samples.

Results

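General capillary endothelial cells are one of the cell types that line the finest blood vessels of the lung. Capillaries of the mouse lung hold 2 endothelial types. Aerocytes are large, thin cells applied to the air spaces where gas is exchanged, and general capillary cells are smaller, divide, and are regarded as the source of new capillary cells of both types. General capillary cells are known for Gpihbp1, which anchors lipoprotein lipase on the vessel wall, for Aplnr, the receptor of the peptide apelin, and for Plvap, a protein of the diaphragms that span endothelial pores. Here they were taken from droplet single-cell RNA sequencing of dissociated whole lungs of mouse embryos at E18.5, the day before birth. The embryos were 2 Zswim8+/- (Het1 and Het2) and 3 Zswim8-/- (KO1, KO2 and KO3), with 1 library each. ZSWIM8 is the substrate receptor of a Cullin-RING ubiquitin ligase that brings about the decay of microRNAs paired to trigger transcripts. All embryos carried at least 1 mutant allele, so no wild-type lung enters the comparison. From Xist and Y-linked transcripts, KO1 and KO2 were female and Het1, Het2 and KO3 were male.

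The general capillary cells were chosen by their own UMI counts (a UMI is 1 counted RNA molecule). A barcode was a member when it passed 500 detected genes with no more than 15% of UMIs mitochondrial, and had a UMI of at least 2 of Cdh5, Pecam1, Cldn5 and Tie1, and of at least 1 of Gpihbp1, Aplnr and Plvap. It also had to hold at most 1 UMI of Ednrb and Apln together, at most 1 of the arterial genes Gja5, Gja4, Bmx, Dkk2 and Hey1, no UMI of Prox1, Mmrn1, Ptprc, Epcam or Pdgfra, and not both Mki67 and Top2a. In all, 483 barcodes met this rule, of 19491 that passed the gene and mitochondrial limits and 50355 deposited. Het1 gave 153, Het2 84, KO1 98, KO2 81 and KO3 67 members, and no member barcode was shared between libraries. Their summed counts ranged from 557209 UMIs in KO3 to 994821 in Het1. The median member held 6121 UMIs in Het1, 7043 in Het2, 6076 in KO1, 8073 in KO2 and 8421 in KO3, a difference that the spread covered (exact permutation test, two-sided, p = 0.5, n = 2 and 3). With 2 embryos against 3 this test cannot give a p below 0.1.

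The members carried the capillary endothelial genes that the rule did not use. Cd93, a surface receptor of endothelium, ran from 756 to 945 CPM (UMIs per 1000000 UMIs of the library's members) in the members of the 5 libraries, and its log2 ratio to all other kept barcodes of the same library lay between 2.90 and 3.19. Emcn (endomucin) had log2 ratios of 3.41 to 3.68, and Kit, the stem cell factor receptor that is typical of general capillary cells, of 3.12 to 3.85. Sftpc, the surfactant gene of alveolar type 2 cells, was lower in the members than in the other barcodes (log2 ratios of -4.82 to -2.72), as was Col1a1 of fibroblasts (-5.52 to -3.70). The rule had already required endothelial genes and excluded Epcam and Pdgfra, and of 19491 kept barcodes 1772 were endothelial. These ratios thus do not separate general capillary cells from other endothelium, and the label rests on the rule. In Het1, Het2, KO1, KO2 and KO3, members with 0 Ednrb and Apln UMIs had Kit at 303, 237, 197, 135 and 157 CPM. Barcodes that met every other clause but held 3 or more were at 105, 122, 140, 123 and 169 CPM, both without TMM scaling. Haemoglobin RNA was not depleted as Sftpc and Col1a1 were: it made up 6.77% of the member UMIs in Het1, 2.30% in Het2, 0.625% in KO1, 3.80% in KO2 and 1.86% in KO3.

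At the edges of the rule the members shaded into aerocytes. Members with exactly 1 UMI of Ednrb and Apln numbered 49, 27, 30, 25 and 16 in Het1, Het2, KO1, KO2 and KO3, and barcodes that met every other clause but held 2 such UMIs numbered 21, 19, 11, 17 and 9. Just inside, Car4, a carbonic anhydrase of aerocytes, averaged 111 CPM in Het1 and 61.1 CPM in Het2 and was at 0 in the 3 Zswim8-/- libraries. Just outside it averaged 119 and 126 CPM in the Zswim8+/- libraries and 18.3 CPM in KO1, and was at 0 in KO2 and KO3. Members with at least 500 but under 1000 genes numbered 14, 5, 14, 3 and 7, and barcodes with at least 250 but under 500 genes that met the other clauses numbered 7, 3, 2, 2 and 2.

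A few upstream regions, from the RefSeq annotation of GRCm38.p6, are shown for genes whose difference between the genotypes also passed the test when the barcodes nearest to aerocytes were left out. They are Prx, which encodes the scaffold protein periaxin, and Depp1, both lower in Zswim8-/- members, and Stab2, a scavenger receptor for hyaluronan, which was higher. Each is the 250 bases before the annotated start, written along the strand of the gene, and capitals mark a match to one of the searched motifs, AGGTGT (T-box), GTAAACA (forkhead) or CCGGAAG (ETS), on either strand.
Prx, chr7:27499074-27499323, plus strand: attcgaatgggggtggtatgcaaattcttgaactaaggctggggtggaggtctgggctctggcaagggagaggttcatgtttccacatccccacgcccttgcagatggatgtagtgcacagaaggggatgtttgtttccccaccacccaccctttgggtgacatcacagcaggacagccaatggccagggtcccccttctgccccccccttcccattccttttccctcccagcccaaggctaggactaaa
Depp1, chr6:116650434-116650683, plus strand: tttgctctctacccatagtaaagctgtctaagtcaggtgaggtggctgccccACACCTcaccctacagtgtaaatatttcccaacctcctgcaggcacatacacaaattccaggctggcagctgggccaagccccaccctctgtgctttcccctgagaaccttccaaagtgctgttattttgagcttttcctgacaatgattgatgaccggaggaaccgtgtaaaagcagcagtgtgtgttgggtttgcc
Stab2, chr10:87007943-87008192, minus strand: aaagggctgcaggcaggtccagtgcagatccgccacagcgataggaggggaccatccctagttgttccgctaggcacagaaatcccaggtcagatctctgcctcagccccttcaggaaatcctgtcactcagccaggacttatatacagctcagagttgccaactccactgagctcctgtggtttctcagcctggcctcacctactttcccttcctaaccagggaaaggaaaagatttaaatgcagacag
Depp1 held a T-box match on the minus strand, and no searched motif was in the windows of Prx and Stab2. Over the 49 windows matched to genes lower in Zswim8-/- members, 10.2% held the T-box motif, against 11.8% of all 32851 windows and 8.38% of those of tested genes. The forkhead motif was in 2.04% of the 49, 3.17% of all windows and 2.16% of those of tested genes, and the ETS motif in 4.08%, 6.91% and 14.6%. These shares stand for 5, 1 and 2 of the 49 windows, and a match does not show a bound site.

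The share of general capillary cells did not differ between the genotypes beyond the spread of the embryos. They made up 30.2% of endothelial barcodes in Het1, 25.6% in Het2, 30.4% in KO1, 26.0% in KO2 and 22.1% in KO3 (difference -1.72 percentage points, exact permutation p = 0.8, n = 2 and 3). Among all kept barcodes the shares were 3.17% and 2.00% against 3.13%, 2.44% and 1.67% (exact permutation p = 0.7, n = 2 and 3). The groups overlapped on both scales. The composition around them was less even. Aerocytes were 20.7% and 26.5% of endothelial barcodes in the Zswim8+/- libraries and 15.2%, 16.7% and 14.5% in the Zswim8-/- libraries, and barcodes with lymphatic Prox1 or Mmrn1 UMIs 21.3% and 21.3% against 32.0%, 31.4% and 32.7%. Neither pair of groups overlapped, and both had an exact permutation p = 0.1 (n = 2 and 3), the smallest possible. Cycling endothelial barcodes were 8.28% and 8.23% against 9.01%, 10.6% and 11.2%, again without overlap (exact permutation p = 0.2, n = 2 and 3). The exclusions of the rule did not act evenly. Of barcodes that met every other clause, the one on Prox1 and Mmrn1 removed 15% and 18.4% in the Zswim8+/- libraries against 28.5%, 34.7% and 28.0% in the Zswim8-/- libraries. The one on Epcam went the other way, with 15.5% and 23.6% against 6.67%, 5.81% and 8.22%.

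**Figure D1:**
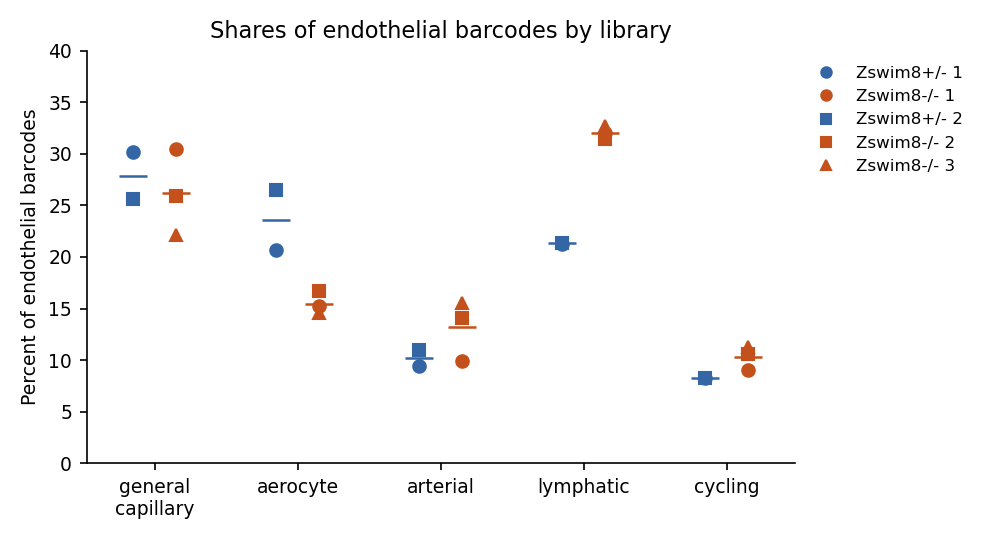
Percent of endothelial barcodes (y axis) that were general capillary, aerocyte, arterial, lymphatic or cycling, 1 point per library, with horizontal lines at the group means of 2 Zswim8+/- and 3 Zswim8-/- libraries. The general capillary points of the groups overlap (22.1% to 30.4%), while the aerocyte, lymphatic and cycling points do not.

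The members also differed in how many of them resembled aerocytes. Of the members, 17.0% in Het1 and 17.9% in Het2 held at least 2 of the aerocyte genes Car4, Fibin, Prx, Tbx2 and Chst1, against 3.06% in KO1, 1.23% in KO2 and 7.46% in KO3 (exact permutation p = 0.1, n = 2 and 3). This share was looked at after the gene results were known. Mitochondrial UMIs moved with genotype as well, with library medians of 7.92% and 7.67% against 6.41%, 6.66% and 6.45% (exact permutation p = 0.1, n = 2 and 3). The part of this difference in the gene results was not tested.

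The main question was which genes differ between Zswim8-/- and Zswim8+/- members. By fold, the largest rises under the naming rule were those of Stab2, Mdk, Bc1, Srm, Maf and Odc1, and the largest falls those of Ryr2, Mndal, Depp1, Irf7, Emp2 and Tmem100. By list, 4 of 9 tested aerocyte genes fell and 3 of 18 tested basement membrane and matrix genes rose. UMIs were summed over the members of each library, and the 7204 genes with enough counts were compared by edgeR's quasi-likelihood test. It called 79 genes at an adjusted p under 0.05, which is 1.1% of those tested. Of these, 18 were higher (0.25%) and 61 lower (0.847%) in Zswim8-/- members, and the median log2 fold change over all tested genes was 0.01. The 18 include Xist, at 1431 and 1264 CPM in the female KO1 and KO2 and at 0 in the male libraries. The 61 include Cldn5, a gene of the membership rule. DESeq2 called 105 genes, of which 65 (61.9%) were higher, against 22.8% higher in the edgeR test, and 31 genes were called by both. The count rested on the libraries: without KO2 edgeR called 0 genes (719 at an unadjusted p under 0.05), without Het1 17, without KO3 38 and without KO1 258. When embryo sex entered the model, 1 gene was called, the noncoding Gm26917 that was high in KO3 alone. Both female embryos were Zswim8-/-, so the genotype difference of this model rests on KO3 against Het1 and Het2. The 3 male embryos alone make the same comparison. There the Zswim8-/- arm has 1 embryo and its spread is taken from the Zswim8+/- pair. The log2 fold change of Ryr2 was -2.47 with sex in the model and -2.48 in the male embryos alone. In bulk sums of this kind, fewer cells in a state and less RNA per cell cannot be told apart.

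Zswim8 itself did not check the genotypes. It stood at 40.9 CPM in Het1, 46.6 in Het2, 51.1 in KO1, 45.2 in KO2 and 45.4 in KO3 (log2 fold change 0.12 ± 0.23 (SE), edgeR adjusted p = 0.883). The groups overlapped. The position of the mutation within the gene is not given in the sources used here, and counts of 3' ends do not show whether an upstream part is missing.

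**Figure D2:**
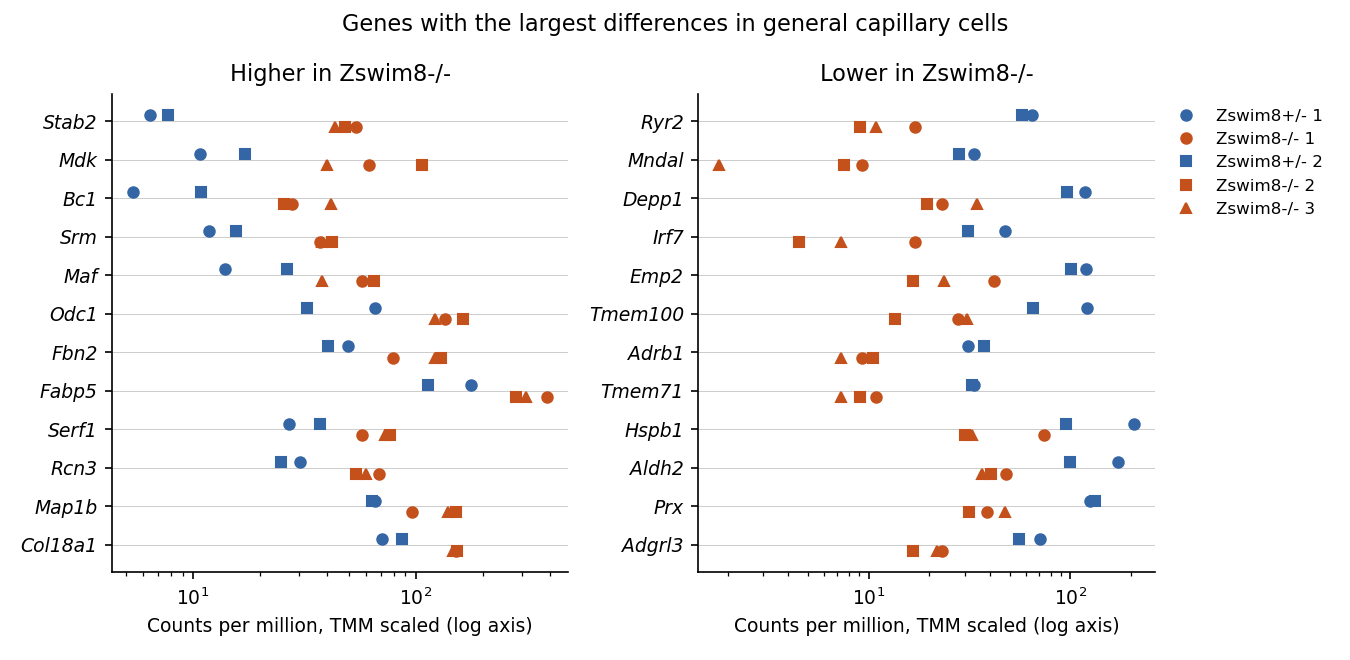
CPM on a log axis, with TMM scaling, for the 12 named genes with the largest rises (left) and the 12 with the largest falls (right) in Zswim8-/- members, 1 point per library. The points of the 2 Zswim8+/- and 3 Zswim8-/- libraries do not overlap for any of these genes, which the naming rule required.

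Stab2 rose most among the named genes. STAB2 is a clearance receptor best known from sinusoidal endothelium of liver and spleen. It stood at 6.45 CPM in Het1, 7.77 in Het2, 54.2 in KO1, 48.2 in KO2 and 43.6 in KO3 (log2 fold change 2.77 ± 0.35 (SE), edgeR adjusted p = 0.00156). All 3 Zswim8-/- libraries were several times above both Zswim8+/- libraries, although each value rests on 5 to 35 UMIs. After every member was thinned to 3000 UMIs, 0.73% and 2.60% of Zswim8+/- members and 16.4%, 6.49% and 11.3% of Zswim8-/- members held a Stab2 UMI. Without thinning the shares were 3.27% and 4.76% against 26.5%, 21.0% and 23.9%. Red-cell barcodes, whose UMIs of other cells' genes come from free RNA, held one in 0.0238% to 0.107% at median depths of 2328 to 2621.5 UMIs. Maf, a transcription factor, rose from 14.0 and 26.4 CPM to 57.3, 64.7 and 38.2 CPM (log2 fold change 1.48 ± 0.33 (SE), edgeR adjusted p = 0.0435).

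A pair of successive enzymes of polyamine synthesis rose together. Odc1, which makes putrescine from ornithine, stood at 65.6 CPM in Het1, 32.6 in Het2, 135 in KO1, 163 in KO2 and 122 in KO3 (log2 fold change 1.45 ± 0.24 (SE), edgeR adjusted p = 0.0106). Srm, which turns putrescine into spermidine, stood at 11.8 CPM in Het1, 15.5 in Het2, 37.2 in KO1, 42.1 in KO2 and 38.1 in KO3 (log2 fold change 1.54 ± 0.32 (SE), edgeR adjusted p = 0.0309). For both genes the lowest Zswim8-/- value was above the highest Zswim8+/- value. They were placed side by side after their values were seen.

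Midkine, a heparin-binding growth factor that is abundant in embryonic tissues, was the single called gene among 4 tested in the list of midkine, pleiotrophin and their receptors. Mdk stood at 10.8 CPM in Het1, 17.1 in Het2, 62 in KO1, 107 in KO2 and 40 in KO3 (log2 fold change 2.38 ± 0.41 (SE), edgeR adjusted p = 0.0121). The 3 Zswim8-/- values were all higher, with a wide spread from KO3 to KO2. Ncl, a nucleolar protein that also binds midkine, did not pass (log2 fold change 0.44 ± 0.14, edgeR adjusted p = 0.165).

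Of 18 tested genes for basement membrane and matrix, 3 rose and none fell. Col18a1, the basement membrane collagen from which endostatin is cut, stood at 71 CPM in Het1, 87 in Het2, 152 in KO1, 154 in KO2 and 147 in KO3 (log2 fold change 0.95 ± 0.17 (SE), edgeR adjusted p = 0.0155). The 3 Zswim8-/- libraries lay close together and above both Zswim8+/- libraries. Col15a1, a related collagen of the outer basement membrane, stood at 122 CPM in Het1, 124 in Het2, 266 in KO1, 185 in KO2 and 219.8 in KO3 (log2 fold change 0.86 ± 0.18 (SE), edgeR adjusted p = 0.0257). Fbn2, which encodes the fetal microfibril protein fibrillin-2, stood at 49.5 CPM in Het1, 40.4 in Het2, 79 in KO1, 129.5 in KO2 and 122 in KO3 (log2 fold change 1.27 ± 0.24 (SE), edgeR adjusted p = 0.0213). The list's median log2 fold change was -0.05, so that these 3 genes stood apart from the rest of it. Lama5, a laminin chain, was at 76.4 and 49.7 CPM in the Zswim8+/- libraries against 41.8, 36.1 and 25.4 CPM in the Zswim8-/- libraries and did not pass (edgeR adjusted p = 0.142). The summed level of fibroblast, smooth muscle, pericyte and mesothelial markers in the members was 218 CPM in Het1, 308 in Het2, 737 in KO1, 367 in KO2 and 260 in KO3. Its part in the matrix genes was not tested.

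The genes of fatty acid and lipoprotein handling went both ways. Of 14 tested, 1 rose and 1 fell, and the median log2 fold change was -0.08. Fabp5, a fatty acid binding protein, stood at 178 CPM in Het1, 114 in Het2, 390.4 in KO1, 283 in KO2 and 314 in KO3 (log2 fold change 1.16 ± 0.20 (SE), edgeR adjusted p = 0.0106). Cd36, a fatty acid transporter of capillary endothelium, stood at 445 CPM in Het1, 387 in Het2, 304 in KO1, 164 in KO2 and 216 in KO3 (log2 fold change -0.87 ± 0.20 (SE), edgeR adjusted p = 0.0471). Both genes separated the groups, in opposite directions. After thinning to 3000 UMIs, Fabp5 was seen in 27.7% and 24.7% of Zswim8+/- members and 35.6%, 37.7% and 30.2% of Zswim8-/- members, and in 5.92% to 17.9% of red-cell barcodes. Fabp4, the second fatty acid binding protein of capillaries, was at 213 and 35.8 CPM in the Zswim8+/- libraries against 984, 420 and 252 CPM in the Zswim8-/- libraries. Its spread was large within both genotypes and it did not pass (log2 fold change 2.08 ± 0.54, edgeR adjusted p = 0.0809).

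Ryr2, Mndal and Depp1 fell most under the naming rule. Ryr2, the calcium release channel best known from heart muscle, stood at 64.5 CPM in Het1, 57.5 in Het2, 17 in KO1, 9.03 in KO2 and 10.9 in KO3 (log2 fold change -2.29 ± 0.30 (SE), edgeR adjusted p = 0.0019). Depp1 stood at 118 CPM in Het1, 96.4 in Het2, 23.2 in KO1, 19.6 in KO2 and 34.5 in KO3 (log2 fold change -2.09 ± 0.24 (SE), edgeR adjusted p = 0.00156). Aldh2, the mitochondrial aldehyde dehydrogenase, fell by 1.72 on the log2 scale from 172 and 99.5 CPM to 48.0, 40.6 and 36.3 CPM (edgeR adjusted p = 0.00248). None of these groups overlapped. Hspb1, a small heat shock protein, stood at 206 CPM in Het1, 94.8 in Het2, 74.4 in KO1, 30.1 in KO2 and 32.7 in KO3 (log2 fold change -1.74 ± 0.34 (SE), edgeR adjusted p = 0.0238), with Het1 the highest and KO1 close to Het2. Mndal, Adrb1, Tmem71 and Adgrl3 fell by 2.24, 1.87, 1.83 and 1.64 on the log2 scale, each from at most 71.0 CPM in Zswim8+/- members.

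All 9 tested genes of the aerocyte list had negative fold changes, and 4 of them fell. The list's median log2 fold change was -1.56. Prx stood at 125 CPM in Het1, 132 in Het2, 38.7 in KO1, 31.6 in KO2 and 47.2 in KO3 (log2 fold change -1.72 ± 0.21 (SE), edgeR adjusted p = 0.00156). Pmp22, a tetraspan membrane protein first known from myelin, stood at 173 CPM in Het1, 168 in Het2, 72.8 in KO1, 51.2 in KO2 and 49.1 in KO3 (log2 fold change -1.56 ± 0.19 (SE), edgeR adjusted p = 0.00156), and its relative Emp2 at 119 CPM in Het1, 101 in Het2, 41.8 in KO1, 16.6 in KO2 and 23.6 in KO3 (log2 fold change -2.01 ± 0.27 (SE), edgeR adjusted p = 0.00223). For each of the 3 genes both Zswim8+/- libraries lay above all Zswim8-/- libraries. After thinning to 3000 UMIs, Emp2 was seen in 18.2% and 9.09% of Zswim8+/- members and 6.85%, 5.19% and 7.55% of Zswim8-/- members. Red-cell barcodes of the same libraries, which were not thinned, held it in 9.10% and 7.01% and 6.97%, 5.24% and 6.70%. Without thinning, Emp2 averaged 0.7255 and 0.774 UMIs per Zswim8+/- member and 0.2755, 0.136 and 0.194 per Zswim8-/- member. Per red-cell barcode, at a lower depth, it averaged 0.101 and 0.0782 against 0.0751, 0.0536 and 0.0711 UMIs. The part of free RNA in the Emp2 values was not tested. Tbx2, a T-box transcription factor, stood at 50.5 CPM in Het1, 73 in Het2, 12.4 in KO1, 24.1 in KO2 and 23.6 in KO3 (log2 fold change -1.60 ± 0.30 (SE), edgeR adjusted p = 0.0213). Car4 was at 77.4 and 32.6 CPM in the Zswim8+/- libraries against 0, 4.52 and 27.2 CPM in the Zswim8-/- libraries and did not pass (edgeR adjusted p = 0.0711). When the members with at least 2 aerocyte genes were left out, 25 genes were called, all of them among the 79. Prx and Tbx3 were among the 25 (log2 fold changes -1.52 and -1.32, edgeR adjusted p = 0.00529 for both), while Emp2, Tbx2 and Pmp22 did not pass (-1.25, -0.87 and -1.02, adjusted p = 0.266, 0.539 and 0.0666). The counts of Prx and Tbx2 decide in part which members this leaves out, so their values under it are not independent of it. With members limited to 0 UMIs of Ednrb and Apln, 20 genes were called, again all among the 79, and Pmp22, Prx and Tbx3 were among them.

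The called genes were also read in aerocytes. Of the 61 called lower genes, 40 (65.6%) had a higher level in the aerocyte barcodes than in the members in both Zswim8+/- libraries, against 37.3% of all 7204 tested genes and 7 of the 18 called higher genes (38.9%). The median log2 ratio of aerocytes to members was 0.22 for the lower genes, 0.24 for the higher genes and 0.07 for all tested genes. The medians of both called sets thus lay above that of all tested genes. The lower and the higher genes differed from each other by the count and not by the median. Cldn5 is counted among the lower genes and Xist among the higher. Genes are not independent replicates.

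Among 21 tested endothelial transcription factors 1 fell and none rose, with a median log2 fold change of -0.08. Tbx3, a T-box factor, stood at 161 CPM in Het1, 200.5 in Het2, 71.3 in KO1, 54.2 in KO2 and 70.9 in KO3 (log2 fold change -1.46 ± 0.18 (SE), edgeR adjusted p = 0.00156). All 3 Zswim8-/- libraries were well below both Zswim8+/- libraries. After thinning to 3000 UMIs, Tbx3 was seen in 36.5% and 41.6% of Zswim8+/- members and 20.6%, 16.9% and 26.4% of Zswim8-/- members (51.0% and 61.9% against 25.5%, 28.4% and 35.8% without thinning), with 0.214% to 1.36% in red-cell barcodes. Foxf1, a forkhead factor needed for the alveolar capillaries, was at 297 and 291 CPM in the Zswim8+/- libraries against 130.1, 150.5 and 234 CPM in the Zswim8-/- libraries (edgeR adjusted p = 0.0756). Sox17 was at 276 and 221 CPM in the Zswim8+/- libraries against 139, 138 and 189 CPM in the Zswim8-/- libraries (edgeR adjusted p = 0.0741). Neither passed the test, although their groups did not overlap, as was so for 29.3% of all tested genes. Fendrr, the long noncoding RNA transcribed from the Foxf1 promoter region, did fall (log2 fold change -0.82 ± 0.15 (SE), edgeR adjusted p = 0.0155), from 273 and 272 CPM to 175, 140.0 and 147 CPM. It belongs to no list and was singled out after its values were seen.

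Tmem100 and Bmpr2 of ALK1 and BMP signalling fell, as did the adrenomedullin receptor gene Calcrl. ALK1 (Acvrl1) and BMPR2 pass the signal of circulating BMP9 and BMP10 to endothelium, and Tmem100 is one of its targets. Of 14 tested genes of this pathway 2 fell, and the list's median log2 fold change was -0.29. Tmem100 stood at 120.5 CPM in Het1, 65.3 in Het2, 27.9 in KO1, 13.6 in KO2 and 30.9 in KO3 (log2 fold change -2.00 ± 0.32 (SE), edgeR adjusted p = 0.00781). Bmpr2 stood at 244 CPM in Het1, 246 in Het2, 156 in KO1, 125 in KO2 and 159.9 in KO3 (log2 fold change -0.74 ± 0.15 (SE), edgeR adjusted p = 0.0309). Acvrl1 was at 369 and 364 CPM in the Zswim8+/- libraries against 291, 208 and 245 CPM in the Zswim8-/- libraries and did not pass (edgeR adjusted p = 0.1). Calcrl, the receptor that binds adrenomedullin together with RAMP2, stood at 822 CPM in Het1, 648 in Het2, 468 in KO1, 329.7 in KO2 and 416 in KO3 (log2 fold change -0.86 ± 0.16 (SE), edgeR adjusted p = 0.0175), and was the only called gene of 4 tested in apelin, endothelin and adrenomedullin signalling. Its partner Ramp2 was at 1353 and 1391 CPM in the Zswim8+/- libraries against 1163, 1022 and 1248 CPM in the Zswim8-/- libraries (edgeR adjusted p = 0.401).

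Of 23 tested genes that mark capillary or all endothelium, 4 fell and none rose, with a median log2 fold change of -0.32. Besides Calcrl these were Ly6a (the surface protein Sca-1), Epas1 (the hypoxia factor HIF-2alpha) and Icam2 (an adhesion molecule for leukocytes). Ly6a stood at 197 CPM in Het1, 144 in Het2, 99.2 in KO1, 49.7 in KO2 and 34.5 in KO3 (log2 fold change -1.47 ± 0.28 (SE), edgeR adjusted p = 0.0213). Epas1 stood at 329 CPM in Het1, 302 in Het2, 201 in KO1, 188 in KO2 and 222 in KO3 (log2 fold change -0.63 ± 0.14 (SE), edgeR adjusted p = 0.0452). Icam2 stood at 572 CPM in Het1, 532 in Het2, 378 in KO1, 381 in KO2 and 354 in KO3 (log2 fold change -0.57 ± 0.13 (SE), edgeR adjusted p = 0.0487). Ly6a had the widest spread among Zswim8-/- libraries and Icam2 the narrowest. The VEGF receptors Kdr and Flt1 and the angiopoietin receptor Tek had log2 fold changes of -0.08 ± 0.16, -0.09 ± 0.17 and 0.28 ± 0.17 (SE), none called.

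Thrombomodulin, the endothelial cofactor that turns thrombin towards protein C, fell. Thbd stood at 279.6 CPM in Het1, 289 in Het2, 142 in KO1, 84.3 in KO2 and 118 in KO3 (log2 fold change -1.31 ± 0.18 (SE), edgeR adjusted p = 0.00224), as the 1 called gene of 10 tested for coagulation and vessel tone. Ace, the angiotensin-converting enzyme, was at 358 and 258 CPM in the Zswim8+/- libraries against 203, 108 and 179.9 CPM in the Zswim8-/- libraries and did not pass (edgeR adjusted p = 0.054). The sodium channel gene Scn7a, abundant in these cells, stood at 2685 CPM in Het1, 2263 in Het2, 1400 in KO1, 1248 in KO2 and 1326 in KO3 (log2 fold change -0.90 ± 0.13 (SE), edgeR adjusted p = 0.00248), and was the 1 called gene of 11 ion channels and transporters. Its 3 Zswim8-/- values lay close together and below both Zswim8+/- values. Kitl, the ligand of Kit, also fell, from 334 and 311 CPM to 215, 149 and 179.9 CPM (log2 fold change -0.83 ± 0.16 (SE), edgeR adjusted p = 0.022), and was singled out after its values were seen.

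Of 17 tested genes of MHC and interferon response 1 fell and none rose. Irf7, a transcription factor of the interferon response, stood at 47.3 CPM in Het1, 31.1 in Het2, 17 in KO1, 4.52 in KO2 and 7.27 in KO3 (log2 fold change -2.03 ± 0.42 (SE), edgeR adjusted p = 0.0309). The median log2 fold change of the list was -0.63. All 3 Zswim8-/- libraries were below both Zswim8+/- libraries. Isg15, an interferon-induced ubiquitin-like protein, was at 118 and 94.8 CPM in the Zswim8+/- libraries against 112, 3.01 and 3.63 CPM in the Zswim8-/- libraries. Ifit1, an interferon-induced RNA-binding protein, was at 48.4 and 40.4 CPM in the Zswim8+/- libraries against 40.3, 6.02 and 5.45 CPM in the Zswim8-/- libraries. In this pair KO1 was near the Zswim8+/- libraries, and KO2 and KO3 were low. Neither passed (edgeR adjusted p = 0.371 and 0.258), and both were singled out after their values were seen.

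Of 21 tested imprinted and IGF pathway genes 1 rose and none fell. Gnas, which encodes the stimulatory G protein subunit, stood at 1407 CPM in Het1, 1672 in Het2, 2411 in KO1, 2440 in KO2 and 2462 in KO3 (log2 fold change 0.66 ± 0.13 (SE), edgeR adjusted p = 0.0229). The list's median log2 fold change was 0.34. H19 was at 76.4 and 42 CPM in the Zswim8+/- libraries against 335, 78.3 and 104 CPM in the Zswim8-/- libraries and Igf2 at 29 and 14 CPM in the Zswim8+/- libraries against 152, 40.6 and 47.2 CPM in the Zswim8-/- libraries. Neither passed (edgeR adjusted p = 0.176 and 0.108), and in both genes KO1 was well above the other 4 libraries. Free RNA of the same genes was also highest in KO1. After thinning, H19 was seen in 42.5% of KO1 members and 40.4% of KO1 red-cell barcodes, against 7.79% to 15.1% of members and 6.29% to 18.3% of red-cell barcodes elsewhere. Igf2 was seen in 26.0% and 17.4% in KO1, against 2.60% to 9.43% and 3.47% to 8.22% elsewhere. Without thinning, H19 averaged 0.464, 0.321, 2.20, 0.642 and 0.851 UMIs per member in Het1, Het2, KO1, KO2 and KO3. Per red-cell barcode it averaged 0.0835, 0.0679, 0.534, 0.147 and 0.213 UMIs, at a lower depth. The part of free RNA in the H19 and Igf2 values was not tested.

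The other lists had no called gene. These were 19 tested microRNA decay adaptors, triggers and hosts (median log2 fold change 0.12), 21 genes of VEGF, angiopoietin and Notch signalling (-0.08), 11 arterial, venous and lymphatic genes (0.08), 13 of junctions (-0.19), 6 GIMAP GTPases (-0.33), 13 G1 cyclins and inhibitors (0.09), 17 S and G2/M genes (0.09) and 18 immediate-early and stress genes (-0.13). Of 8 tested genes for leukocyte adhesion 1 fell (Icam2; median -0.43), and of 16 for hypoxia and glycolysis 1 fell (Epas1; median 0.01). Among the arterial, venous and lymphatic genes, Lyve1, a lymphatic marker that lung capillaries also express before birth, was at 378 and 358 CPM in the Zswim8+/- libraries against 309.8, 412 and 534 CPM in the Zswim8-/- libraries and Nr2f2, a venous factor, at 64.5 and 90.2 CPM in the Zswim8+/- libraries against 110, 105 and 131 CPM in the Zswim8-/- libraries. Cdk4, a G1 kinase, was at 111 and 123 CPM in the Zswim8+/- libraries against 166, 202 and 187 CPM in the Zswim8-/- libraries and narrowly missed the threshold (edgeR adjusted p = 0.0657).

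**Figure D3:**
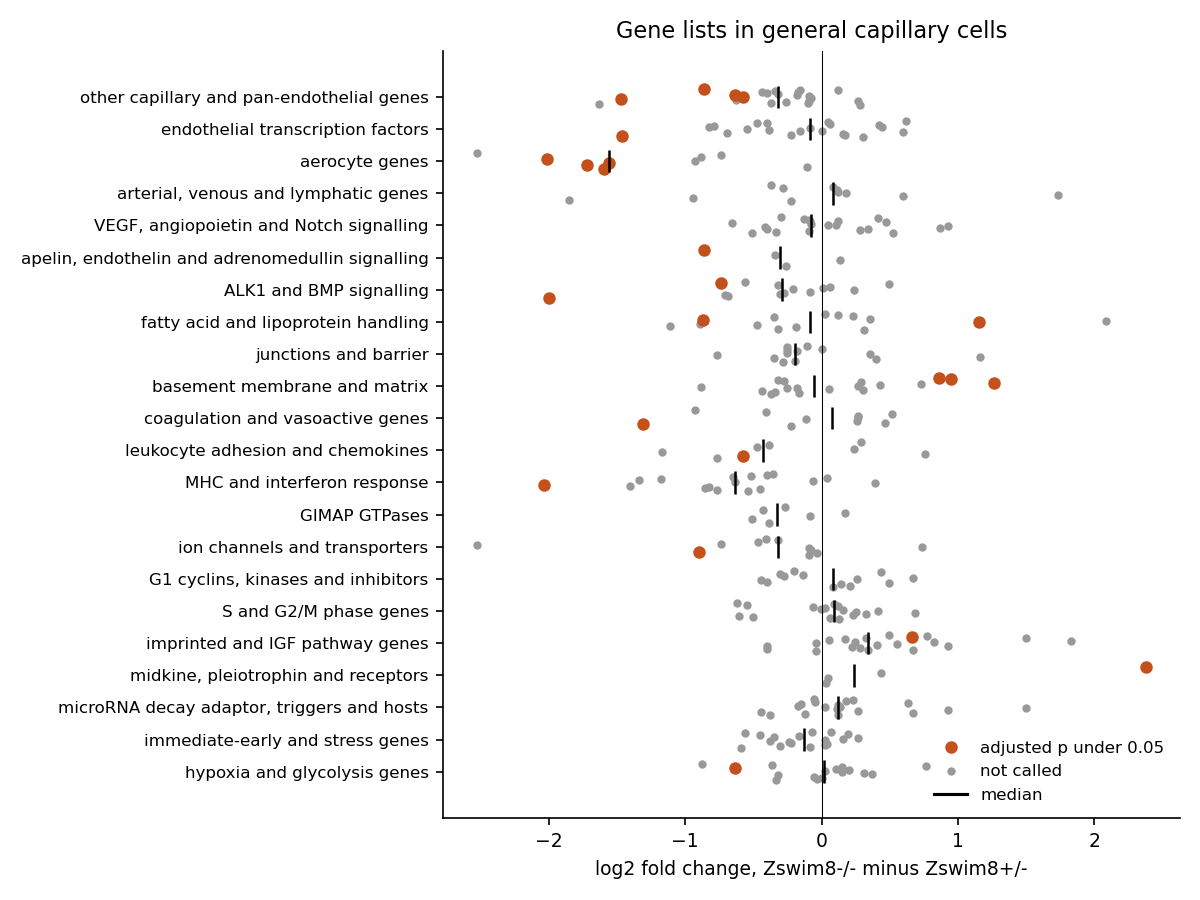
The log2 fold change between Zswim8-/- and Zswim8+/- members (x axis) for each tested gene of 22 lists (rows), with called genes as large orange points, other genes as small grey points and the median of each list as a black line. The aerocyte list lies to the left (median -1.56), while the other medians lie between -0.63 and 0.34.

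Some markers of other lung cells moved with genotype. Of 12 tested alveolar epithelial markers 2 fell, Ager (-2.82 ± 0.36) and Hopx (-2.40 ± 0.41, log2 fold change and SE), both known from alveolar type 1 cells, and the summed level of the list was 2249 and 689 CPM in the Zswim8+/- libraries and 1611, 436 and 583 CPM in the Zswim8-/- libraries. After thinning, Ager was seen in 17.5% and 15.6% of Zswim8+/- and 9.59%, 5.19% and 5.66% of Zswim8-/- members, against 16.5% and 13.0% and 12.01%, 8.28% and 13.9% of red-cell barcodes, so the member shares were close to or below the red-cell shares. Without thinning, Ager averaged 1.53 and 0.75 UMIs per Zswim8+/- member and 0.235, 0.160 and 0.164 per Zswim8-/- member. Per red-cell barcode, at a lower depth, it averaged 0.205 and 0.148 against 0.132, 0.0904 and 0.165 UMIs. Of 2 tested airway markers Scgb1a1 fell (sums of 339.8 and 138 against 146, 63.2 and 67.2 CPM). Scgb1a1 was seen in 22.6% and 16.9% against 6.85%, 3.90% and 9.43% of thinned members. The red-cell barcodes, not thinned, held it in 29.1%, 18.47%, 18.7%, 7.55% and 11% in Het1, Het2, KO1, KO2 and KO3. Without thinning the member shares were 34.0%, 23.8%, 17.35%, 11.1% and 13.4%, above the red-cell share in every library but KO1. Scgb1a1 averaged 0.778, 0.3095, 0.235, 0.111 and 0.149 UMIs per member. Per red-cell barcode, at a lower depth, it averaged 0.470, 0.274, 0.2295, 0.102 and 0.140. Of 7 mesenchymal and mesothelial markers Msln fell, and none of 7 immune (sums of 564 and 369.9 against 150.3, 152 and 439.7 CPM) or 5 erythroid markers was called. The erythroid sums were high, at 72640 and 22580 CPM against 6365, 41380 and 18850 CPM, and in every library but KO1 they exceeded the 19360, 12210, 12640, 10230 and 10840 CPM of the other kept barcodes of Het1, Het2, KO1, KO2 and KO3. Epcam, Ptprc, Pdgfra, Prox1 and Mmrn1 were at 0 by the rule, and Cd3e and Bpifa1 at 0 in every library. The part of these cells or their free RNA in the falls was not tested. Without barcodes that strongly carried another cell type's markers, 148 genes were called, 72 of them among the 79. Ager and Hopx no longer passed (edgeR adjusted p = 0.18 and 0.224), while Scgb1a1 did (edgeR adjusted p = 0.015). The counts of these markers decide in part which barcodes this leaves out, so their values under it are not independent of it.

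The genes used by the rule are given as description only, although the edgeR test counted Cldn5 among its 79 calls. Plvap stood at 268 CPM in Het1, 303 in Het2, 412 in KO1, 381 in KO2 and 392 in KO3, and Aplnr at 190.4 CPM in Het1, 211 in Het2, 243 in KO1, 272 in KO2 and 247 in KO3. In both genes the Zswim8-/- libraries were higher. Cldn5, a tight junction protein, stood at 1483 CPM in Het1, 1453 in Het2, 905 in KO1, 1061 in KO2 and 952 in KO3, with the Zswim8-/- libraries lower. Gpihbp1 stood at 583 CPM in Het1, 633 in Het2, 810.2 in KO1, 446 in KO2 and 469 in KO3, with KO1 above and KO2 and KO3 below the Zswim8+/- libraries.

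The same genes were read in the neighbouring aerocytes, on CPM without TMM scaling. The libraries are the same, so the values are set side by side with no test. Tbx3 in aerocytes was at 288 and 279 CPM in the Zswim8+/- libraries and 69.8, 66.2 and 72.3 CPM in the Zswim8-/- libraries. Thbd in aerocytes was at 399.8 and 435 CPM in the Zswim8+/- libraries and 115, 119 and 118 CPM in the Zswim8-/- libraries. Col18a1 in aerocytes was at 129.8 and 109 CPM in the Zswim8+/- libraries and 231, 215 and 199.8 CPM in the Zswim8-/- libraries. Tmem100 in aerocytes was at 169 and 231 CPM in the Zswim8+/- libraries and 126, 75.6 and 108 CPM in the Zswim8-/- libraries. These 4 genes, a selection, separated the groups in aerocytes in the direction seen in the members. Others did not. Depp1 in aerocytes was at 105.5 and 123 CPM in the Zswim8+/- libraries and 44.9, 44.9 and 118 CPM in the Zswim8-/- libraries. Fabp5 was at 334 and 140 CPM against 412, 314 and 359 CPM, and Bc1 overlapped between the groups too. Tmem100 in arterial barcodes was at 426 and 199.9 CPM against 266, 269 and 299 CPM, with no separation. Stab2 in arterial barcodes was at 9.91 and 0 CPM against 0, 4.02 and 5.83 CPM, a level of a few counts.

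**Figure D4:**
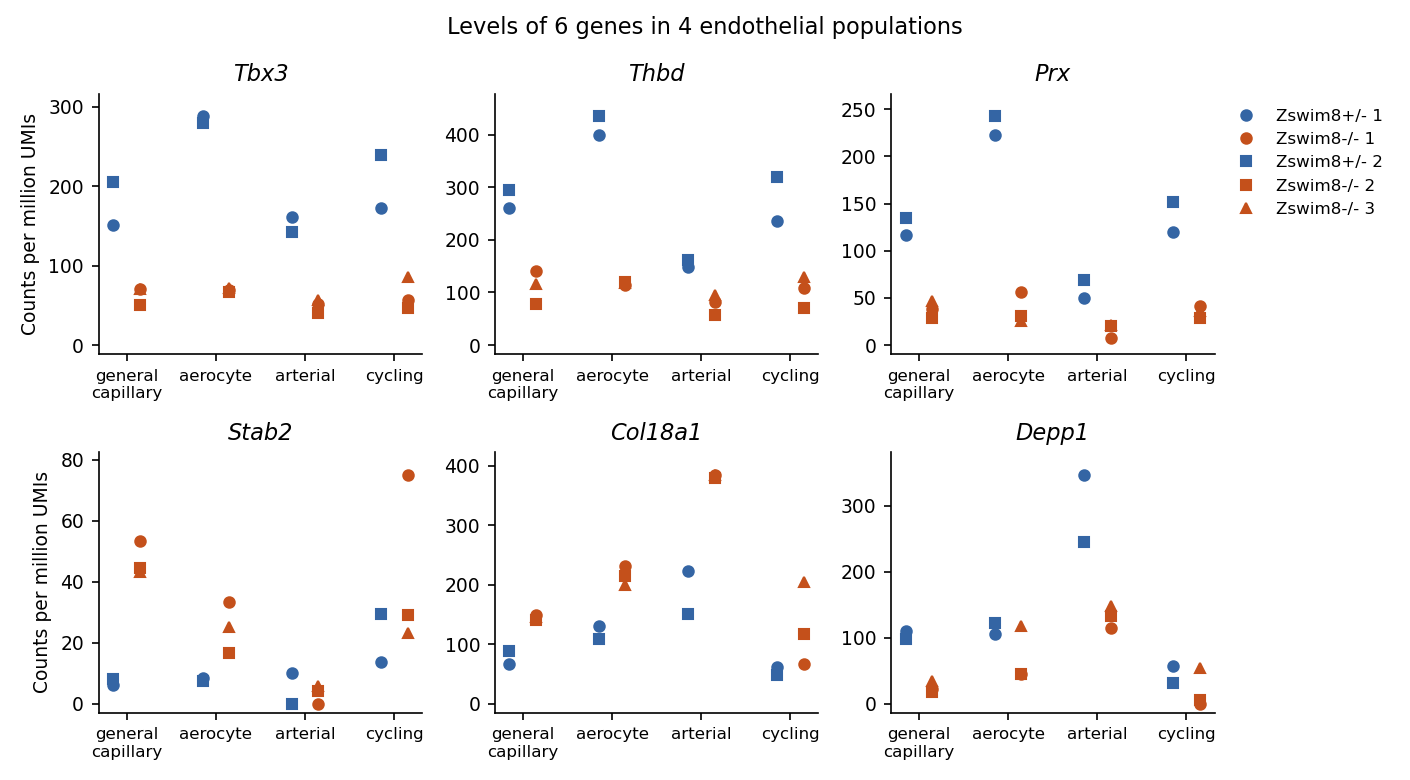
CPM (y axis) of Tbx3, Thbd, Prx, Stab2, Col18a1 and Depp1 in 4 endothelial populations (x axis), 1 point per library. Tbx3, Thbd and Prx are lower in all 3 Zswim8-/- libraries than in both Zswim8+/- libraries in each population, while Stab2 separates the groups in general capillary cells and aerocytes but not in the other 2. Depp1 overlaps between the groups in aerocytes and in cycling barcodes.

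Whether the genotype difference of the members departs from that of the other cells was asked with a genotype by population term, with the library as a block. Against all other kept barcodes, edgeR called 107 of 16308 genes (0.656%), of which 43 were positive. The fit gave all genes 1 shared spread, so genes that vary between embryos can pass with too small a p. A test of the log2 ratio of members to other barcodes per library, with limma, called 0 of 7142 genes (505 at an unadjusted p under 0.05). The term is therefore described by values. Fabp5 in the members was at 174 CPM in Het1, 110 in Het2, 376 in KO1, 274 in KO2 and 307 in KO3, and in the other barcodes at 884 CPM in Het1, 776 in Het2, 459 in KO1, 404 in KO2 and 420.3 in KO3. It was higher in Zswim8-/- members and lower in the other Zswim8-/- barcodes (term 2.12 ± 0.17 (SE), edgeR adjusted p = 2.98e-33, limma adjusted p = 0.438). Bc1, a short cytoplasmic noncoding RNA, was at 5.26 CPM in Het1, 10.6 in Het2, 26.8 in KO1, 24.7 in KO2 and 40.8 in KO3, and in the other barcodes at 25.5 CPM in Het1, 34.3 in Het2, 31.3 in KO1, 24.9 in KO2 and 38.2 in KO3 (term 1.93 ± 0.45 (SE), edgeR adjusted p = 0.00508, limma adjusted p = 0.48). Against the 165 cycling endothelial barcodes, edgeR called 0 of 8124 genes (0%, with 271 at an unadjusted p under 0.05), and limma 0 with 299.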

How the data were processed

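The authors deposited, per library, a 10x matrix of UMI counts per gene and barcode, without normalization. Per the labels' protocols, lungs were digested with collagenase, treated with red cell lysis buffer and loaded for 3' libraries, and per the submitters' processing notes Cell Ranger 4.0.0 and mm10 were used. Gene positions follow GENCODE annotation of the same build (32158 of 32285 gene IDs matched). The members and the gene lists were chosen with earlier results of these data known.

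Member UMIs were summed per library, since cells are not replicates. Genes were filtered with filterByExpr, scaled by TMM and compared with edgeR 4.0.16 (quasi-likelihood test, Benjamini-Hochberg adjustment over all genes tested). CPM values of the members are TMM-scaled unless stated. Shares and medians were compared by two-sided exact permutation tests over the 5 libraries. The labels do not say whether embryos came from separate litters. DESeq2 1.42.0 and limma 3.58.1 gave alternatives. The edgeR comparison of the genotypes and the genotype by population term, by edgeR and by limma, were tested on simulated data. The other alternatives were not. At a simulated log2 fold change of 1 the edgeR comparison of the genotypes recovered 96 of 184 changed genes, with 12 false calls. At 2 it recovered 180 of 185, with 4 false calls. At a simulated log2 fold change of 2 the term was recovered for 173 of 200 genes by edgeR and 163 of 183 by limma. False calls of the term numbered 7 and 10. The simulated counts had 1 spread for all genes of a population. No doublet caller was run.

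Named genes are the 12 largest rises and falls that were called, did not overlap between groups and reached 10 CPM, and the 4 genes with the lowest p of each list. Rule genes, mitochondrial, haemoglobin and Y-linked genes, Xist, Tsix, and markers of other cells were left out of the largest changes. Other X-linked genes stayed eligible. Genes whose UMIs per red-cell barcode exceeded 25% of those per member were also left out, which removed Cstdc4, Cstdc5 and Gm42418. For each genotype by population term, 5 genes per direction were taken under the same limits.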

Additional observations from a re-analysis of the deposited data

Results flagged for a closer look

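The genotype difference of general capillary cells departed from that of all other kept barcodes for 107 genes by edgeR's test of the genotype by population term, and for 0 genes by limma on the ratios per library. The largest positive terms (log2 scale, edgeR) were 2.91 for Ogn, 2.68 for Fabp4, 2.12 for Fabp5, 1.98 for Prr5l and 1.93 for Bc1. Ogn, a matrix proteoglycan of fibroblasts, was at 0 CPM in Het1, 3.02 in Het2, 34.3 in KO1, 8.73 in KO2 and 3.55 in KO3 in the members, so that KO1 set the value. Fabp4 was at 208 CPM in Het1, 34.7 in Het2, 946 in KO1, 406 in KO2 and 247 in KO3 in the members and at 131 CPM in Het1, 154 in Het2, 168 in KO1, 41.8 in KO2 and 87.7 in KO3 in the other barcodes, with a wide spread within both genotypes. Prr5l was at 7.36 CPM in Het1, 6.03 in Het2, 17.9 in KO1, 18.9 in KO2 and 35.5 in KO3 in the members.

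The largest negative terms were -3.11 for Slc40a1, -2.67 for Igfbp6, -2.58 for Hspa1a, -2.13 for Clic3 and -2.08 for Arl4d. Slc40a1, the iron exporter ferroportin, was at 13.7 CPM in Het1, 10.6 in Het2, 1.49 in KO1, 2.91 in KO2 and 5.32 in KO3 in the members and at 16.9 CPM in Het1, 21.1 in Het2, 42.3 in KO1, 39 in KO2 and 41.3 in KO3 in the other barcodes, so that it was lower in Zswim8-/- members and higher in the other Zswim8-/- barcodes. Hspa1a, a heat shock gene, was at 14.7 CPM in Het1, 66.3 in Het2, 4.47 in KO1, 4.37 in KO2 and 5.32 in KO3 in the members, with Het2 far above the rest.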

How the results depend on the processing

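The 79 calls became 284 with every gene that had a UMI, 177 in male embryos alone (Het1 and Het2 against KO3, an arm of 1 embryo assumed to vary like the others), 1 with sex as a covariate, 20 with 0 UMIs of Ednrb and Apln, 25 without members holding 2 aerocyte genes, and 148 without strongly mixed barcodes (added after seeing the data). Leaving out 1 library gave 0 (without KO2) to 258 (without KO1), and without Het1 or Het2 the remaining Zswim8+/- embryo is assumed to vary like the Zswim8-/- embryos. Without KO2 the adjusted p of the 37 named called genes ran from 0.0503 to 0.239, and with sex as a covariate from 0.0863 to 0.567. All 37 kept their sign in every alternative that tested them. Library size scaling (71), a minimum count of 30 (62), limits of 1000 genes and 10% mitochondrial UMIs (69), leaving out high-UMI barcodes (77) and entry by Gpihbp1 or Aplnr (81) stayed within 1.5 times. DESeq2 gave no adjusted p for 25 of the 37.

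The replicate block, fitted because embryos share numbers 1 and 2 in the labels, called 183 genes, and of the 37 named called genes Icam2 and Gnas did not pass under it. KO3 has no Zswim8+/- embryo of the same number, so it adds nothing to the genotype difference under the block. That difference sets the female KO1 and KO2 against the male Het1 and Het2, so genotype and sex cannot be told apart in it. The deviations of same-numbered embryos correlated at 0.10 and 0.05, over 2 pairs, so the numbers were not used as a pairing.

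The term against other barcodes called 71 genes under the limits of 1000 genes and 10% mitochondrial UMIs, 40 to 100 with 1 library left out and 0 with limma on log2 ratios per library (added after seeing the data). The term against cycling barcodes gave 0 to 12 with 1 library left out.

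The difference in the share of general capillary cells among kept barcodes was 0.044 percentage points under the limits of 1000 genes and 10% mitochondrial UMIs, 0.41 without Het1 and 0.20 without KO3, and ran from -0.76 to 0.41. That in the share of general capillary cells among endothelial barcodes was 0.56 without Het1 and 0.30 without KO3, and ran from -4.01 to 0.56. The median UMI difference kept its sign.

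Among genes that were not called, the log2 fold change turned in several alternatives. With sex as a covariate it was -0.47 for Edn1, 0.068 for Ctnnd1, -0.13 for Mcm6, -0.16 for Sdc4, -0.50 for Meg3 and 0.0058 for Cebpb. Male embryos alone make the same comparison of KO3 with Het1 and Het2 as the sex covariate. There the log2 fold change was -0.47 for Edn1, 0.067 for Ctnnd1, -0.13 for Mcm6, -0.17 for Sdc4, -0.51 for Meg3 and 0.0087 for Cebpb. Without KO1 the log2 fold change was -0.031 for Edn1, -0.049 for Sdc3 and -0.17 for Sdc4. Over the libraries left out in turn, Edn1 ran from -0.031 to 0.34, Sdc3 from -0.17 to 0.23 and Sdc4 from -0.17 to 0.14. It was -0.17 for Sdc3 without Het1 and under the limits of 1000 genes and 10% mitochondrial UMIs. With 0 UMIs of Ednrb and Apln it was -0.16 for Edn1 and -0.10 for Sdc4. The cause of these changes was not tested.

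Leaving out every barcode with markers of another cell type, as planned, could not be fitted, because it marked 95.5% to 100% of the members. At the depth of 557209 to 994821 UMIs per library, a gene near 10 CPM rests on few counts.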
